A study of Mus musculus with 6 samples.

Results

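Lens crystallins are the soluble proteins that make the eye lens transparent, and their transcripts were followed here in medullary thymic epithelial cells (mTECs) with and without Mbd1. The 10 genes were Cryaa, Cryab, Cryba1, Cryba2, Cryba4, Crybb1, Crybb2, Crybb3, Crygs and Crygd. They were found as every probe of the authors' expression matrix whose gene symbol was one of these names, which gave 13 of its 41174 probes. Cryaa, Cryab and Crybb1 had 2 probes each and the other 7 genes had 1. Sorted mTECs of 30-day-old mice came from Mbd1 knockout and Mbd1 wild-type animals, with 3 matrix columns per genotype, named knockout 1 to 3 and wild type 1 to 3. The sort kept live EpCAM-positive, MHC class II-positive cells and left out cells with CD45, CD11c or Ly51. The submitters describe biological replicates, with 1 per genotype removed after quality control. The sources used here do not give the strain, the deleted part of Mbd1 or the number of animals behind a replicate.

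Crystallins fall into the alpha family, small heat shock proteins that hold other proteins in solution, and the beta and gamma families, which share a fold of Greek key motifs and pack at high concentration in lens fibre cells. Outside the lens, alpha B crystallin is abundant in muscle, heart and glia, whereas the beta and gamma members are known mainly from the eye. In the thymus, mTECs transcribe many genes of other organs and show their products to developing T cells, and Aire drives much of this expression. The product of Mbd1 recognises DNA carrying methylated CpG.

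Promoters are shown for Cryaa, the member with the largest positive difference, and for Cryba4 and Crybb1, neighbours on chromosome 5 whose wild-type columns were the most spread. Each run covers 250 bases before to 50 bases after the annotated start (RefSeq, GRCm38.p6), 5′ to 3′ on the gene's strand. Capitals mark TGCTGA or its complement, the half-site recognised by Maf proteins, which activate crystallin genes in the lens. They also mark TATAAA, a form of the TATA box. The regions are chr17:31677681-31677980 on the plus strand for Cryaa, chr5:112252469-112252768 on the minus strand for Cryba4 and chr5:112255570-112255869 on the plus strand for Crybb1.
Cryaa: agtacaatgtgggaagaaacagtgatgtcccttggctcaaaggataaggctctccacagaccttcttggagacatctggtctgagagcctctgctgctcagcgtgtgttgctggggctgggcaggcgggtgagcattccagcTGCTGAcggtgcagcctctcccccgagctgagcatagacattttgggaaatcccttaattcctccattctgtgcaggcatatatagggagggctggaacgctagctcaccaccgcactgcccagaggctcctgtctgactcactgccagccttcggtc
Cryba4: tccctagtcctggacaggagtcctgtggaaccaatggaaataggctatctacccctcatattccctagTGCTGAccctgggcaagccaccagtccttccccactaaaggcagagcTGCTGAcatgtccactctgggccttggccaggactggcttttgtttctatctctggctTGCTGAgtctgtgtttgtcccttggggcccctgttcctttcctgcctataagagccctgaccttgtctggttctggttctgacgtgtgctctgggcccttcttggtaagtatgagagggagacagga
Crybb1: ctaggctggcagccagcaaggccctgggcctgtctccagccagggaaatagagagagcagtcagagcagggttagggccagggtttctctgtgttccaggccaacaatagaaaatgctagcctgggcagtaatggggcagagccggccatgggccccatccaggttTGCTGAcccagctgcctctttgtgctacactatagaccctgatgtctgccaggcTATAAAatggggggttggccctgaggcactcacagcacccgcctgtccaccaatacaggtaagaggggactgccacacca

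The reference table held promoters of 9 of the 10 genes. TGCTGA stood on either strand in 7 of the 9, against 19.5% of the 32851 mouse promoters of the same length. Cryba4 carried 3 copies, with first bases at -182, -135 and -77 from the start, and Crybb1 1 copy at -84 and Cryaa 1 at -108. Cryba1, Cryba2, Crybb3 and Crygs had 1 copy each, and none was found in the windows of Crybb2 and Crygd. TATAAA stood in 4 of the 9, those of Cryba1, Cryba2, Crybb1 and Crygs, against 13.6% of all promoters. Only this exact sequence was sought, so a promoter without it may still hold a variant TATA box. Its first base was at -23 in Cryba1, -30 in Crybb1 and -25 in Crygs. In Cryba2 it was at -3, next to the start site, so that match is not counted as a TATA box of this start. The crystallin promoters held between 0 and 15 CpG dinucleotides, with a median of 4, and the median over all promoters was 7. Cryba2 had the most, with 15, while Cryba4 had 1, Crybb1 2 and Crybb2 0. These counts describe letters in a window and say nothing of methylation or binding, which were not measured.

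**Figure D1:**
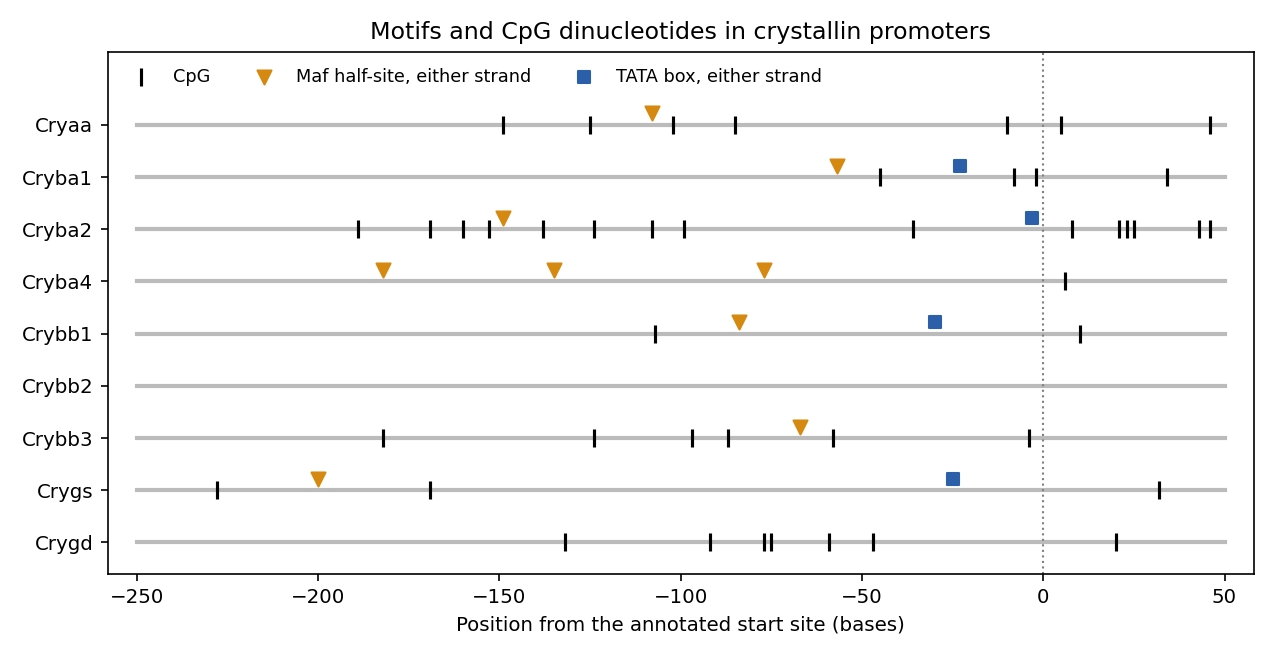
Positions of CpG dinucleotides (black ticks), Maf half-sites (triangles) and TATAAA matches (squares, labelled TATA box) along 9 crystallin promoters, in bases from the annotated start site. Cryba4 shows 3 half-sites and 1 CpG, and Cryba2 shows the most CpGs, 15.

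The column names were checked on Mbd1 itself. Its probe A_51_P143224 read 5.64, 5.61 and 5.60 in the knockout columns, against 8.83, 8.60 and 9.00 in the wild-type columns, on the log2 scale. The difference was -3.19 (SE 0.19, limma, adjusted p = 6.2e-05). Other Mbd1 probes read -2.96 and -0.98 (adjusted p = 9.2e-05 and 0.125), and where the probes lie relative to the deletion is not known here. The scanner files carry titles that go against the matrix: 5 of the 6 columns had exactly the ranks of the median spot signal of a scanner array, and for 4 of these the array was titled with the other genotype. Column knockout 1 matched no array, and the array titled knockout 2 matched no column, so detection, counted over 6 arrays, includes 1 array that is not known to be among the columns tested. Directions below follow the column names, and the values by array title are given after them. None of the 13 mTEC marker genes was at background in all columns, and the mean log2 level over their 20 probes was 13.15 to 13.32 in the knockout and 13.26 to 13.34 in the wild-type columns.

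Crystallin transcripts were detected in mTECs of both genotypes, with Crygs little above background, and no member passed the test between them. All 13 probes were well above background on all 6 scanner arrays. That flag can also cover probes near background: Mbd1 probe A_52_P131423 had it on all 6, at 5.47, 5.67 and 5.60 in the knockout columns. In the matrix, all 13 crystallin probes exceeded the 95th percentile of never-detected probes in all 6 columns, Crygs by as little as 0.14. In either direction, 0 of 13 had an adjusted p under 0.05 (limma on the log2 values, Benjamini-Hochberg adjustment over the 32246 probes tested). Of all probes tested 0.177% passed, 0.164% as higher and 0.0124% as lower in the knockout, so 0 of 13 is near that background. Before adjustment the count was likewise 0 of 13, against 3.96% of all probes. In 0 of 13 were the 3 knockout columns all above or all below the 3 wild-type columns, against 8.14% of all probes. The differences ran from -0.40 to 0.39, with 4 positive, 9 negative and a median of -0.07, while the median over all probes was -0.01. The adjusted p was 0.9995 for every crystallin probe. For each of the 13 the difference was smaller than the larger range within a genotype, as it was for 96.3% of all probes. The 95% intervals of 11 probes lay within 1 log2 unit of 0, and those of the Crybb1 probes reached down to -1.05 and -1.01, so smaller differences in either direction remain possible. In the 5 columns that matched an array, the matrix keeps the ranks of spot signals without background subtraction. Folds of dim probes are understated on such a scale. For knockout 1, which matched no array, this could not be checked. In sorted bulk RNA, fewer cells with a transcript and less transcript per cell cannot be told apart.

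**Figure D2:**
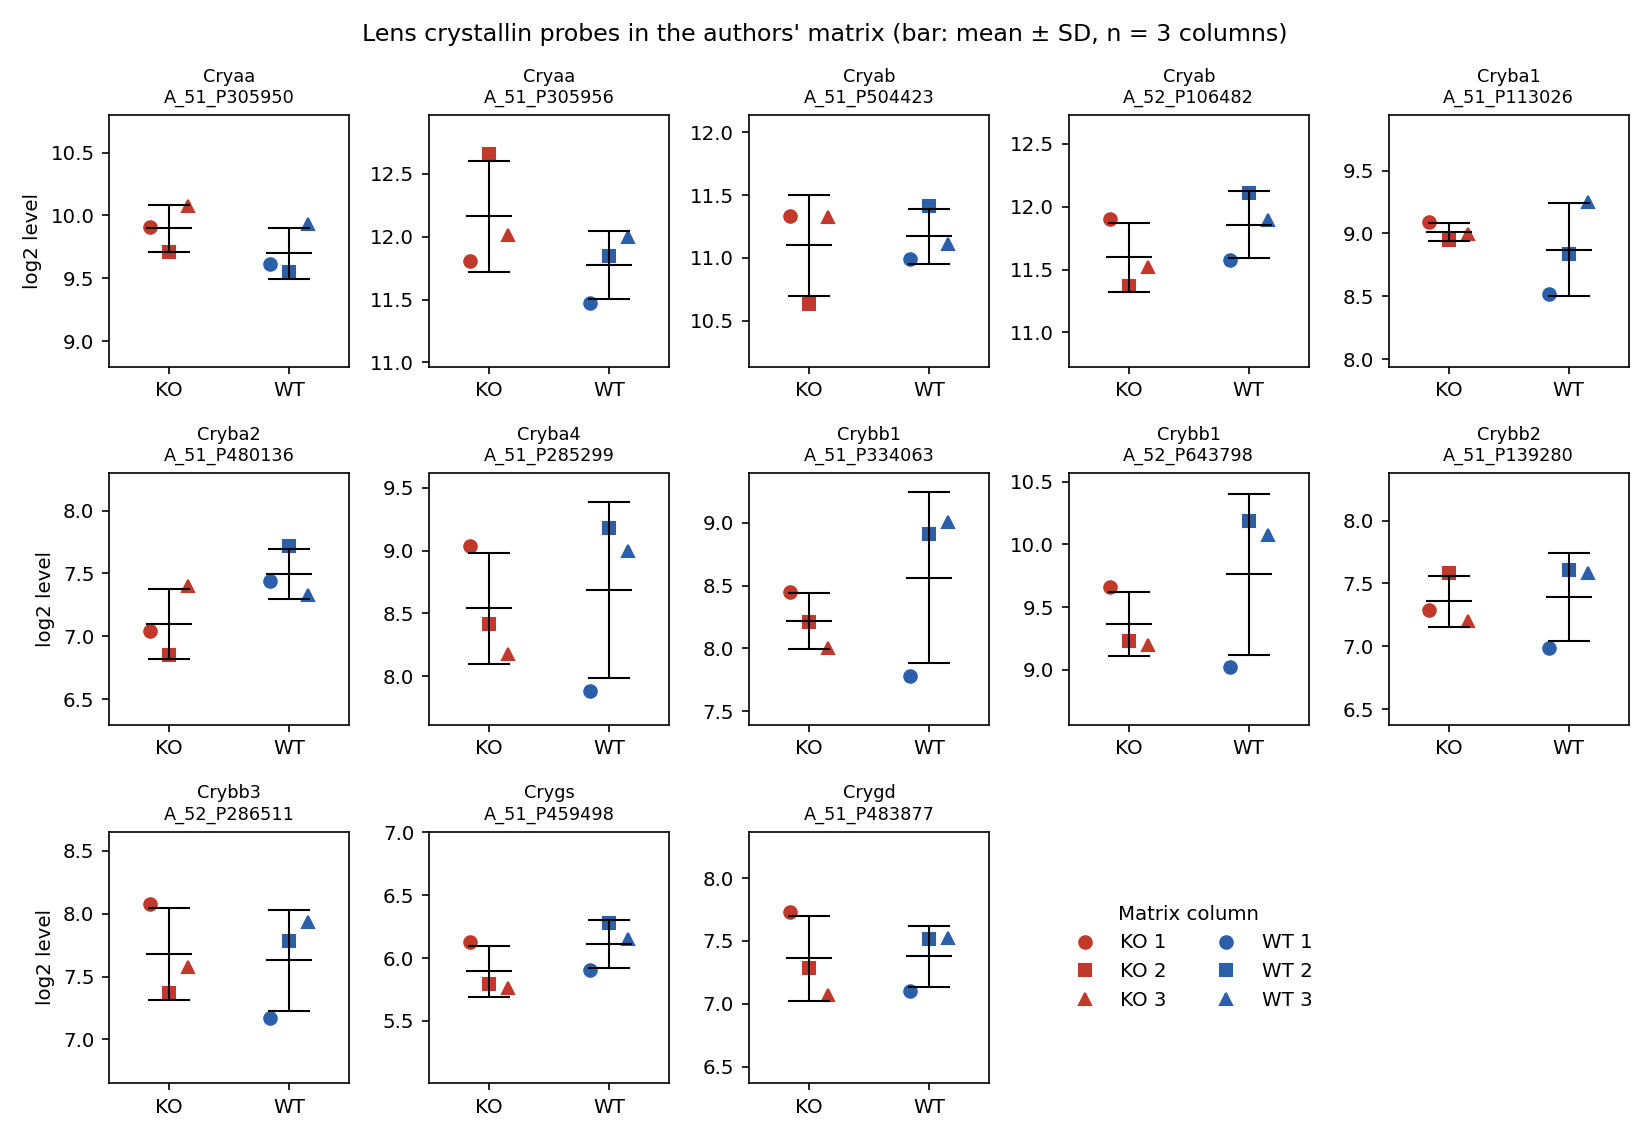
Log2 level of each of the 13 crystallin probes in the 3 knockout (red) and 3 wild-type (blue) matrix columns, each panel spanning the same height, with mean and SD. The genotypes overlap in every panel, and the wild-type columns of Cryba4 and Crybb1 are the most spread.

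Among the alpha crystallins, Cryaa, on chromosome 17, encodes the chaperone largely restricted to the lens. Its probe A_51_P305956 read 11.81, 12.66 and 12.02 in the knockout columns, against 11.47, 11.85 and 12.00 in the wild-type columns. Knockout 2 was the highest column and wild type 1 the lowest, and the other 4 lay close together. The difference was 0.39 (SE 0.25, 95% interval -0.16 to 0.94), a 1.31-fold higher mean that did not pass. The other probe, A_51_P305950, read 9.91, 9.71 and 10.08 in the knockout columns, against 9.62, 9.55 and 9.93 in the wild-type columns. Here knockout 3 was highest and knockout 2 below wild type 3, so both probes read positive (0.20, SE 0.20 for the second) but ordered the columns differently.

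Cryab, on chromosome 9, encodes the stress-induced chaperone made in many tissues. Probe A_52_P106482 read 11.90, 11.37 and 11.52 in the knockout columns, against 11.57, 12.11 and 11.89 in the wild-type columns, a difference of -0.26 (SE 0.22, 95% interval -0.75 to 0.23). Probe A_51_P504423 read 11.33, 10.64 and 11.33 in the knockout columns, against 10.99, 11.41 and 11.11 in the wild-type columns, a difference of -0.07 (SE 0.24). Knockout 2 was the lowest and wild type 2 the highest column in both probes, and the genotypes overlapped.

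The acidic beta crystallins differed among themselves. Cryba2, on chromosome 1, had the most negative difference of the members. It read 7.04, 6.85 and 7.40 in the knockout columns, against 7.44, 7.71 and 7.33 in the wild-type columns, with knockout 3 above wild type 3. The difference was -0.40 (SE 0.21, 95% interval -0.87 to 0.07), and its unadjusted p of 0.0886 (limma) was the smallest of the 13. Cryba1, on chromosome 11, which yields a pair of beta A proteins, read 9.09, 8.95 and 8.99 in the knockout columns, against 8.52, 8.84 and 9.25 in the wild-type columns. The knockout columns were close together (SD 0.07) and lay inside the wild-type range (SD 0.37), and the difference was 0.14 (SE 0.22). Cryba4, on chromosome 5, read 9.03, 8.41 and 8.18 in the knockout columns, against 7.89, 9.18 and 9.00 in the wild-type columns. Its wild-type columns alone spanned 1.29 and held both extremes, beside a difference between genotypes of -0.15 (SE 0.34, 95% interval -0.89 to 0.60).

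Of the basic beta crystallins, Crybb1 varied in the manner of its neighbour Cryba4. Probe A_52_P643798 read 9.66, 9.23 and 9.20 in the knockout columns, against 9.03, 10.18 and 10.08 in the wild-type columns. Probe A_51_P334063 read 8.45, 8.21 and 8.00 in the knockout columns, against 7.78, 8.91 and 9.00 in the wild-type columns. In both probes wild type 1 was the lowest column and wild type 2 and 3 the highest, with the knockout columns between. The differences were -0.40 (SE 0.30, 95% interval -1.05 to 0.26) and -0.34 (SE 0.30, 95% interval -1.01 to 0.32). Crybb1 and Cryba4 are annotated on opposite strands with overlapping spans (112254563 to 112269585 and 112246492 to 112263625 of chromosome 5, GRCm38.p6) and start sites 3302 bases apart. The overlap lies upstream of that Cryba4 start site, and from the start sites shown the genes run apart. Where the probes lie relative to the overlap was not examined. The sources used here do not say if the labelling kept the strand, so signal from the overlap could not be assigned to either gene.

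Crybb2 and Crybb3 lie next to each other on chromosome 5, 5722 bases apart. Crybb2, an abundant beta crystallin of the adult lens, read 7.28, 7.59 and 7.20 in the knockout columns, against 6.99, 7.61 and 7.58 in the wild-type columns (difference -0.04, SE 0.23, 95% interval -0.53 to 0.46). Crybb3 read 8.08, 7.37 and 7.58 in the knockout columns, against 7.17, 7.78 and 7.93 in the wild-type columns (difference 0.05, SE 0.26, 95% interval -0.52 to 0.61). Wild type 1 was again the lowest column of both, and the genotypes overlapped, with knockout 1 the highest column of Crybb3.

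Of the gamma family, Crygs on chromosome 16 encodes gamma S, the member that lies apart from the gamma gene cluster. It read 6.13, 5.79 and 5.76 in the knockout columns, against 5.91, 6.28 and 6.15 in the wild-type columns (difference -0.22, SE 0.20, 95% interval -0.66 to 0.22). These values were 0.14 to 0.71 above the 95th percentile of the 5295 probes never detected in the same column. Crygd, of the gamma cluster on chromosome 1, read 7.73, 7.28 and 7.07 in the knockout columns, against 7.10, 7.51 and 7.52 in the wild-type columns. Both the highest and the lowest column were knockout columns, and the difference was -0.02 (SE 0.23, 95% interval -0.52 to 0.48). Genes of this cluster are similar in sequence, so a probe of one may take up transcripts of another.

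**Figure D3:**
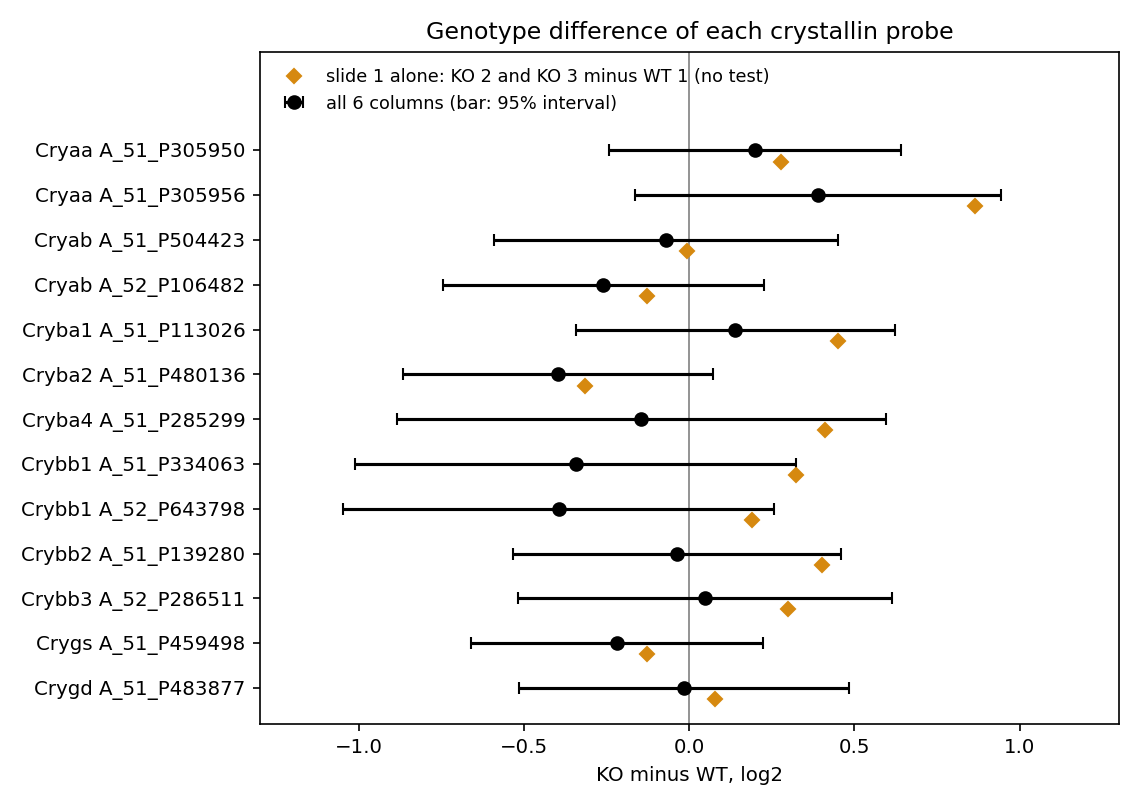
Knockout minus wild type on the log2 scale for each crystallin probe, with the 95% interval of the fit on 6 columns (black) and the difference within slide 1 (orange diamonds, 2 knockout columns against 1 wild-type column, no test). All 13 intervals include 0, and each diamond lies to the right of its black point.

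Many of the crystallin probes ordered the columns of a genotype alike. Wild type 2 and wild type 3 both lay above wild type 1 in 11 of 13 probes, against 40.1% of all probes, and wild type 1 was the lowest of the 6 columns in 7, against 21.4%. Knockout 1 lay above both other knockout columns in 9 of 13, against 27.5% of all probes. The median deviation of the 7 beta probes from their own 6-column means was 0.10, -0.20 and -0.18 in knockout 1 to 3, against -0.48, 0.42 and 0.31 in wild type 1 to 3. Among the beta probes the wild-type ordering held in 6 of 7, all but Cryba2, and the knockout ordering in 5 of 7, all but Cryba2 and Crybb2. Both gamma probes had both orderings. These counts were chosen after the values were seen and carry no test. Probes of a gene are not independent, and those of genes with overlapping spans may not be.

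**Figure D4:**
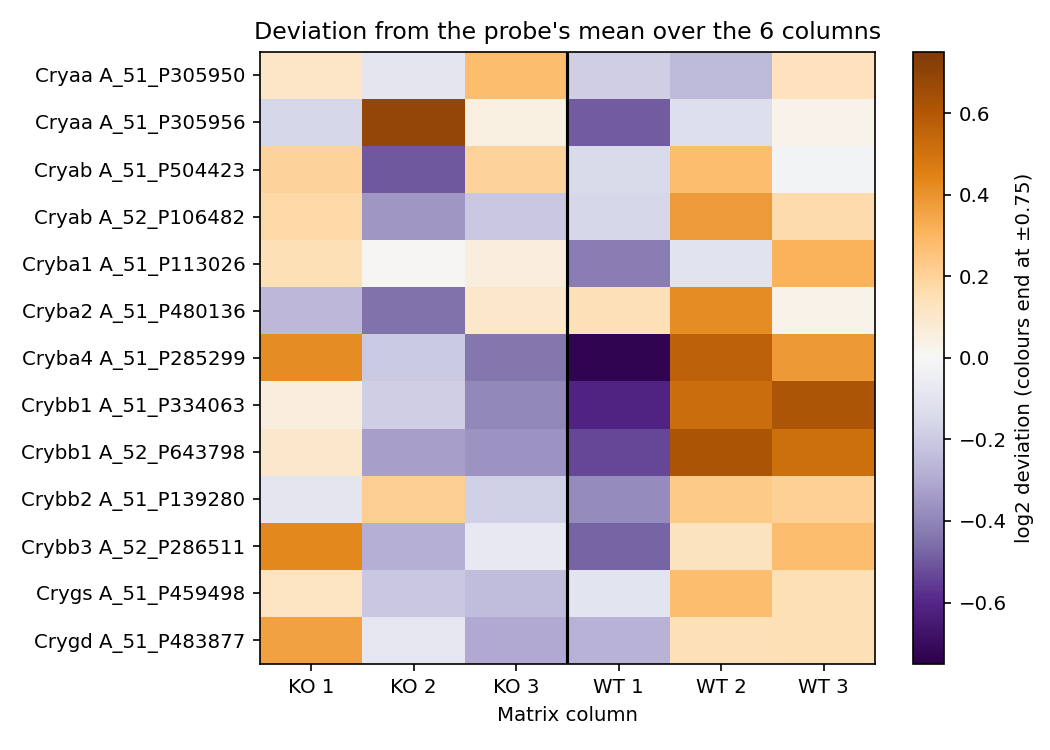
Deviation of each crystallin probe from its own mean over the 6 matrix columns, in log2 units (orange above, purple below), with knockout columns left of the line and wild-type columns right. Wild type 1 is the lowest column in 7 of the 13 probes, while wild type 2 and 3 lie above it in 11.

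The slide moved with that ordering. The arrays that the ranks identify put wild type 1, knockout 2 and knockout 3 on 1 slide and wild type 2 and wild type 3 on another, while the slide of knockout 1 is not known. Among the columns of known slide, only the first of these slides held both genotypes by column name. On it, knockout 2 and 3 minus wild type 1 was positive in 9 of 13 probes, with a median of 0.28. The other slide also held the array titled knockout 2, which matched no column and so entered no contrast by column. Its Mbd1 intensity was 17.2, against 356 and 682 on the arrays titled knockout 1 and 3 of that slide. Its Cryaa and Crybb1 intensities are given below by title. The fit with the slide as a block over 5 columns rests on the same contrast and gave the same differences, and 49.2% of all probes were positive in it. Its largest crystallin value was Cryaa A_51_P305956 at 0.87 (SE 0.34, limma, adjusted p = 0.748), followed by Cryba1 at 0.45, Cryba4 at 0.41 and Crybb2 at 0.40. Crybb1 read 0.19 and 0.32, Cryba2 -0.31, Crygs -0.13, and Cryab -0.01 and -0.13. No probe on the array passed in that fit (limma, 0% of 32246, smallest adjusted p = 0.0736), while 2125 had an unadjusted p under 0.05. The differences of Cryba4, both Crybb1 probes, Crybb2 and Crygd had the opposite sign in the fit on 6 columns. This fit rests on wild type 1 alone for its slide, and the part of the slide in the differences was not tested.

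Grouped by the titles of the scanner files, the crystallins also gave no call. Of the 32127 probes tested 0% passed, so the absence of a crystallin call here carries no information. Cryaa probe A_51_P305956 had processed intensities of 3206, 1655 and 5286 on the arrays titled knockout 1 to 3, against 6690, 1863 and 3982 on those titled wild type 1 to 3. Crybb1 probe A_52_P643798 had 1093, 619 and 1600 on the arrays titled knockout, against 680, 354 and 568 on those titled wild type. These intensities are background-subtracted but not scaled between arrays, and the arrays titled wild type and knockout each filled 1 slide, so slide and title cannot be told apart. In log2 units scaled to each array's 75th percentile the crystallin median was 0.42 and 10 of 13 probes had the sign opposite to the matrix columns. Mbd1 had an intensity of 356, 17.2 and 682 on the arrays titled knockout, against 20.9, 305 and 15.6 on those titled wild type, so the titles do not separate the arrays by the targeted gene.

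Other genes of the lens likewise gave no call. Of 59 probes of 43 genes in 5 lists, 0 passed in either direction, 40 were positive and 19 negative, and 3 had an unadjusted p under 0.05. Over all probes 48.2% were positive and 3.96% had such a p. The largest median was that of the other beta-gamma crystallins, 0.31 over 9 probes of 7 genes, 8 of them positive. Cryge and Crygf, gamma crystallins of chromosome 1, read 0.76 (SE 0.24, limma, adjusted p = 0.727) and 0.57 (SE 0.21, adjusted p = 0.9995). Cryge probe A_51_P289062 read 6.59, 6.84 and 7.20 in the knockout columns, against 5.93, 5.93 and 6.49 in the wild-type columns. These do not overlap, as was the case for 8.14% of all probes. A second Cryge probe read 0.31, but 2 of its wild-type columns (5.34 and 5.36) lay under the 95th percentile of never-detected probes, as did wild type 1 of Crygf (5.60), so these differences are measured partly against background. Crygd of the same cluster read -0.02, and the difference between the neighbours was not tested. Crygn, a relative found in the retina, read 0.42.

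The small heat shock proteins related to the alpha crystallins had a median of -0.13 over 9 probes, 2 positive and 7 negative. Hspb3 read 0.48 (limma, adjusted p = 0.9995). Its values were 7.38, 7.30 and 7.41 in the knockout columns, against 6.87, 6.89 and 6.88 in the wild-type columns, with no overlap. Over all probes 8.14% had no overlap, and so did probes of Crygf, Bfsp2, Grifin and Lenep in the lens lists. Hspb2, which lies head to head with Cryab, read -0.33 and -0.13 at its probes, and Hspb7, a heart and muscle member, -0.97 (SE 0.54) and -0.32. Enzymes named as crystallins had a median of 0.01 over 6 probes, with Cryzl1 and Cryz each at 0.06 and Cryl1 at 0.02.

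Lens membrane and cytoskeleton genes had a median of 0.07 over 17 probes, with Bfsp2, a filament protein of lens fibres, at 0.38 and Mip, the lens water channel, at -0.28. Lens transcription factors had a median of 0.11 over 18 probes, 15 of them positive. Hsf4, the heat shock factor of the lens, read 0.61 (SE 0.29) and Sox2 0.39 (SE 0.24). For Sox2, knockout 1 (5.43) and the wild-type columns (5.57, 5.46 and 5.50) lay at or under the 95th percentile of never-detected probes. Its difference is therefore measured partly against background. Maf, the Maf protein of lens fibres, read between 0.00 and 0.52 over 4 probes.

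**Figure D5:**
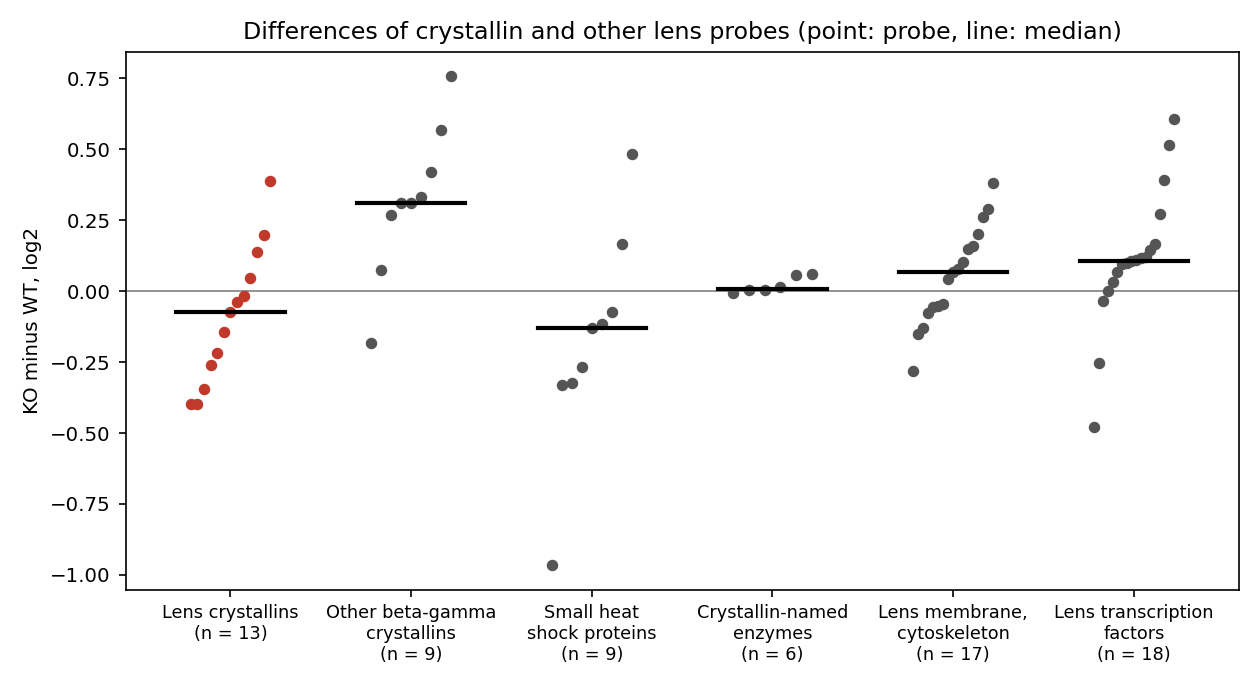
Knockout minus wild type on the log2 scale for the 13 crystallin probes (red) and the probes of 5 lists of lens-related genes (grey), with the median of each list as a line. The crystallin median is -0.07, and that of the other beta-gamma crystallins is 0.31, with 0 probes passing in any list.

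Markers of other cells that could carry crystallin transcripts were measured beside them. Muscle markers, 8 genes with 18 probes, had mean levels of 7.40 to 7.53 in the knockout and 7.21 to 7.32 in the wild-type columns. Glial markers, 6 genes with 11 probes, had 8.00 to 8.18 in the knockout and 7.88 to 8.31 in the wild-type columns. Blood cell markers, 14 genes with 24 probes, had 8.55 to 8.65 in the knockout and 8.13 to 8.29 in the wild-type columns. Cortical epithelial markers, 8 genes with 13 probes, had 9.84 to 9.88 in the knockout and 9.52 to 9.73 in the wild-type columns. Mesenchymal and endothelial markers, 9 genes with 15 probes, had 8.31 to 8.70 in the knockout and 8.15 to 8.52 in the wild-type columns. Of the 24 blood probes 9 had an unadjusted p under 0.05 (limma), against 3.96% of all probes. The blood and cortical lists were higher in every knockout than in any wild-type column. The same held for the lens lists of other beta-gamma crystallins and of transcription factors. It also held for the muscle list, but 9 of the 18 muscle probes belong to Ttn. Without them, a choice made after the values were seen, the muscle mean was 7.43, 7.39 and 7.34 in the knockout and 7.23, 7.52 and 7.39 in the wild-type columns, which overlap. No gene of the marker lists was at background in all columns, and the part of these cells in the crystallin values was not tested.

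For the members of smallest p, the genes with the most similar profile over the 6 columns were listed as a description. For Cryba2 these were Sva, Czib and Spata18, with Pearson's r of 0.989, 0.988 and 0.985. For Cryaa probe A_51_P305956 they were Slc27a6, Grhpr and Tpmt, with r of 0.997, 0.992 and 0.990. These are the highest of 18606 genes, over only 6 columns, and 163 genes exceeded 0.9 with Cryba2 and 266 with Cryaa.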

How the data were processed

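Sorted mTECs of Mbd1 knockout and wild-type mice were measured on Agilent arrays, 1 sample per array, after whole-transcriptome amplification and Cy3 labelling per the labels' protocols. The authors' deposited matrix holds a log2 value per probe, and the tool behind it is not given in the sources used here. Its 6 columns share nearly the same median (7.13 to 7.14). The deposited scanner files hold intensity values from Agilent Feature Extraction, background-subtracted within each array. The file headers give its version as 10.7.3.1, whereas the submitters' processing notes name 10.6. The authors' p-values in the deposited matrix were not used in a result. Each array had 43379 non-control spots, 0 of them saturated, and between 72.6% and 79.5% of probes well above background. The number of arrays limits the precision.

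The members and gene lists were chosen with earlier results of these data known. Probes were kept where well above background on at least 3 of 6 arrays (32246 probes). Knockout minus wild type, by column name, was fitted in R 4.3.3 with limma 3.58.1 (lmFit, then eBayes) and adjusted by Benjamini-Hochberg over all kept probes (threshold 0.05). The fit was tested on simulated data. Of all probes, 33380 were named through Entrez ID, 2253 by the file's symbol and 5541 had none. Named genes were all members, Mbd1, of each list up to 3 genes of smallest p, and the 3 genes most correlated with each of the 2 members of smallest p. Maf was added after its values were seen. Some genes this rule names are not reported here. Scanner files were grouped by title, after scaling processed intensities to the 75th percentile of their array on the log2 scale, with a floor of 1. The normexp alternative (offset 50) used the median spot signal, because the mean was not among the columns. Other alternatives changed the probe filter, the probe per gene, the variance moderation, the block and the columns included.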

Additional observations from a re-analysis of the deposited data

How the results depend on the processing

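No crystallin probe and no probe of the lens lists passed under any of the 15 settings run (smallest adjusted p of a crystallin 0.748, limma, with the slide as a block). In both scanner settings and with the slide as a block no probe on the array passed, so the absence of a crystallin call there carries no information. The median crystallin difference of -0.07 was 0.28 with the slide as a block, 0.42 and 0.28 by scanner title (processed signal, then normexp with quantile normalization), and -0.24 to 0.05 when 1 column was left out. The count of all probes passing, 57, was 26 without the filter on dim probes, 19 with 1 probe per gene, 20 with the mean over probes, 95 with the replicate block, 0 with the slide as a block, 0 in both scanner settings, and 27 (without wild type 2) to 79 (without knockout 1) when 1 column was left out. Same-numbered columns correlated at -0.29, -0.18 and -0.33 in their deviations, so the numbers do not pair the samples. The replicate block gave no crystallin call. It cannot change a difference, because each block holds a column of each genotype, so the unchanged directions carry no information. Mbd1 read -3.22 with the slide as a block, no longer past the threshold, 1.51 and 0.84 by scanner title, and -3.30 to -3.10 when 1 column was left out; detection on all 6 arrays leaves that probe out. With the slide as a block the sign turned for Cryba4 (0.41), Crybb1 (0.32 and 0.19), Crybb2 (0.40) and Crygd (0.079). By scanner title it turned for 10 probes, given as processed signal and then normexp: Cryaa A_51_P305956 -0.57 and -0.53, Cryab A_51_P504423 0.15 and 0.13, Cryab A_52_P106482 0.30 and 0.32, Cryba2 0.42 and 0.29, Cryba4 0.77 and 0.64, Crybb1 A_51_P334063 0.55 and 0.47, Crybb1 A_52_P643798 0.70 and 0.62, Crybb2 0.38 and 0.18, Crygs 0.72 and 0.23, and Crygd 0.58 and 0.28. Leaving out 1 column turned the sign within these ranges: Cryab A_51_P504423 -0.19 to 0.16, Cryba1 -0.036 to 0.33, Cryba4 -0.55 to 0.10, Crybb2 -0.24 to 0.070, Crybb3 -0.18 to 0.20 and Crygd -0.20 to 0.13. It kept the sign but moved the value by over 1.5 times for Crybb1 A_52_P643798 (-0.76 to -0.19), Crybb1 A_51_P334063 (-0.74 to -0.13), Cryaa A_51_P305956 (0.14 to 0.56), Cryaa A_51_P305950 (0.11 to 0.31), Cryab A_52_P106482 (-0.41 to -0.14) and Crygs (-0.34 to -0.14). Scanner titles regroup the arrays, and the cause of the other shifts was not tested. Crygs, little above background, is limited by its signal.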
